A study of Mus musculus with 8 samples.

Results

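Nuclear genes with the symbols of mitochondrial ribosomal proteins were examined. Membership rests on the symbols, and whether each protein is part of the ribosome was not checked. Every gene listed was taken whose symbol begins with Mrpl or Mrps followed by a digit. This rule found 76 of the 26586 genes listed, 47 with large subunit symbols (Mrpl) and 29 with small subunit symbols (Mrps). The default edgeR expression filter kept 75 of them (46 large and 29 small) among 13873 genes tested. Mrpl36 was not tested, with 13 counts in control replicate 1 and 0 in the other 7 libraries.

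The mitochondrial ribosome, or mitoribosome, translates the messenger RNAs of the mitochondrial genome, all of which encode subunits of the oxidative phosphorylation complexes. Its proteins are encoded in the nucleus, translated in the cytosol and imported, whereas its ribosomal RNAs are transcribed from the mitochondrial DNA, so assembly needs the products of both genomes. Some of its proteins have relatives in the bacterial ribosome and others are found in mitochondria alone, and the oocyte supplies the mitochondria that the embryo inherits.

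RNA-Seq was performed on ovarian primordial follicles of C57Bl/6 x CBA mice at postnatal day 3. Mito-supplemented samples came from third-generation descendants of founders that had received mitochondria of egg precursor cells along with intracytoplasmic sperm injection, and the other samples are labelled as controls. Both groups came from natural matings. The follicles of an ovary were pooled, the Trio RNA-Seq kit, with its amplification and ribosomal RNA depletion, was used on their total RNA, and a further control library had been left out by the authors and was not available here. There were 4 libraries in each group, separate samples by their labels, and p values measure only the spread between these samples. The label codes begin with 280 for controls 1 and 2, 301 for controls 3 and 4, C56 for mito-supplemented 1 to 3 and C60 for mito-supplemented 4, and what these codes stand for is not given in the sources used here. Libraries are called by group and replicate number, and levels are CPM, counts scaled to a common library size after TMM normalisation.

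Total counts were 17658559, 13917412, 18219362 and 10370045 in controls 1 to 4. They were 19760763, 13370911, 16116434 and 13276462 in mito-supplemented 1 to 4. Of these, the mitoribosomal protein genes held 26574, 9864, 15248 and 4885 counts in controls and 17242, 9578, 15834 and 13259 in mito-supplemented libraries. Control 4 was the shallowest for them, with a median of 40 counts per gene tested and 9 of the 76 genes under 10 counts. A count of 0 allowed a level of up to 0.592 CPM in control 4 and up to 0.123 CPM in control 1, where the floor of 3 counts lay highest and lowest, and this covers counting error only.

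The label of primordial follicles was checked against markers of oocytes and of the pregranulosa cells that surround them. Each of the 10 oocyte markers had at least 1 count in every library, and their summed level was 1948.7, 153.6, 95.9 and 385.5 CPM in controls against 224.4, 119.0, 435.4 and 75.8 CPM in mito-supplemented libraries. Control 1 stood far above the others. Kit was the most abundant oocyte marker, and none of the list was at 0 throughout. All 10 were fitted lower in mito-supplemented samples (median log2 fold change −1.72), Kit alone at an unadjusted p value under 0.05, beside 7.71% of all genes. Without control 1 the median was 0.27, with 7 of the 10 fitted higher and 0 at an unadjusted p value under 0.05, beside 7.67%. With limma-voom the median was 0.92, with 9 fitted higher and 2, Nobox and Zp2, at that threshold, beside 37.6%. The 8 pregranulosa markers summed to 148.6, 86.7, 153.3 and 382.1 CPM in controls against 246.7, 539.4, 418.0 and 561.4 CPM in mito-supplemented libraries. Lgr5 was their most abundant gene, none was at 0 throughout, and 7 of the 8 were fitted higher (median 1.26). Of these, 3 (Amhr2, Lgr5 and Krt8) had an unadjusted p value under 0.05, beside 7.71% of all genes. The count was 5 without control 4 (12.6% of all genes) and 6 with limma-voom (37.6%), where the median was 2.11. It was 2 without control 1, 2 or 3 or mito-supplemented 2 or 4, beside 3.95% to 7.67%.

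Markers of other ovarian cells also differed between libraries. The 8 surface epithelium markers summed to 95.5, 33.9, 21.3 and 255.0 CPM in controls against 251.3, 688.6, 270.3 and 573.9 CPM in mito-supplemented libraries, led by Upk3b. All 8 were fitted higher (median 1.96). Of them, 5 (Upk1b, Upk3b, Krt7, Muc16 and Gpm6a) had an unadjusted p value under 0.05, beside 7.71% of all genes (5.31% higher). The median was 3.49 without control 4, with 7 at that threshold (12.6% of all genes), and 4.28 with limma-voom, with 8 (37.6%). The count was 2 without control 1 (7.67%) or mito-supplemented 2 (3.95%). It was 3 without control 2 (5.55%), control 3 (6.21%) or mito-supplemented 4 (4.34%). The 7 stroma markers, led by Col3a1, summed to 327.6, 442.2, 638.6 and 2185.9 CPM in controls against 948.3, 967.5, 2464.8 and 2143.8 CPM in mito-supplemented libraries, with all 7 fitted higher (median 0.68). Their median was 0.42 without control 1, 0.37 without control 2, 1.76 without control 4 and 1.56 with library size as the only scaling. The count at an unadjusted p value under 0.05 was 0, beside 7.71% of all genes. It was 5 without control 4 (12.6%) and 4 with library size as the only scaling (9.67%). Limma-voom gave 3 (37.6%), a replicate block 2 (7.07%) and counts summed by label code 2 (7.5%). Leaving out replicate 4 of both groups gave 3 (9.31%), and no expression filter 1 (7.54%). Endothelial markers, led by Kdr, were fitted higher for 4 of 5 tested (median 0.85). Esam was the one under an unadjusted p value of 0.05, beside 7.71% of all genes. Their sums were 25, 27.6, 39.7 and 208.0 CPM in controls against 94.8, 224.5, 168.4 and 192.2 CPM in mito-supplemented libraries. The median was 1.58 without control 4 and 0.14 without mito-supplemented 3. Esam and Kdr both passed without control 4 (12.6%), with library size only (9.67%), with limma-voom (37.6%) and with a replicate block (7.07%). They also did with counts summed by label code (7.5%) and without replicate 4 of both groups (9.31%). Immune markers, led by Lyz2, were fitted higher for 4 of 4 tested (median 0.90), at 7.4, 130.7, 113.5 and 20.9 CPM in controls against 730.8, 10.9, 14.5 and 8.6 CPM in mito-supplemented libraries. Their median turned to −1.87 without mito-supplemented 1, −1.90 with limma-voom and −1.20 with a replicate block, and it was 1.56 without control 3, 1.37 without mito-supplemented 3 and 1.61 without mito-supplemented 4. Red cell markers, led by Slc4a1, were fitted lower for 3 of 3 tested (median −0.35), at 13.4, 3616.9, 2401.5 and 41.4 CPM in controls against 4530.3, 72.9, 20.1 and 19.2 CPM in mito-supplemented libraries. Their median ran from −5.57 without mito-supplemented 1 to 0.41 without control 2, and was also above 0 without control 3 or mito-supplemented 2, 3 or 4. No marker listed in the counts was at 0 in all libraries. In bulk samples, fewer cells of a type and less RNA per cell cannot be told apart, and the part of cell makeup in the results that follow was not tested.

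Under TMM scaling, the summed level of the mitoribosomal protein genes lay lower in mito-supplemented samples, with overlapping groups, while with library size as the only scaling it lay higher. Of the 75 tested, 53 were fitted lower and 22 higher, which is 70.7% lower beside 55.1% of all genes. Their median log2 fold change was −0.29, with quartiles of −0.59 and 0.04, against −0.10 for all 13873 genes; with library size as the only scaling the medians were −0.08 and 0.17, and the summed level of the genes turned from −0.24 to 0.14. That scaling moved the median of all genes by over 0.1, and relative to it the mitoribosomal genes were at −0.25, against −0.19 under TMM and −0.05 with a GC content and length offset. Fold changes ran from −1.14 for Mrpl15 and Mrps35 to 1.24 for Mrps34, and 5 genes (Mrpl15, Mrps9, Mrps28, Mrps34 and Mrps35), or 6.67%, reached an absolute value of at least 1, beside 26.3% of all genes. Without control 1, the library with the highest oocyte marker level, the median was −0.08 beside 0.04 for all genes, and 53.3% were fitted lower beside 48.3% of all genes.

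No mitoribosomal protein gene passed the quasi-likelihood test of edgeR. With Benjamini-Hochberg adjustment it called 0 of 75 (adjusted p under 0.05 and a 2-fold difference), beside 0% of all genes, with 0.655 as the lowest adjusted p value. It placed 0 of 75 under an unadjusted p value of 0.05, beside 7.71% of all genes, made up of 5.31% higher and 2.4% lower. The likelihood ratio test likewise gave 0 called and 0 at an unadjusted p value under 0.05, beside 0.418% and 9.2% of all genes. DESeq2 called 0, beside 1.03%, and placed 2, Mrps14 and Mrps5, under an unadjusted p value of 0.05, beside 10.9%. Limma-voom with quality weights called 1, Mrpl18 (log2 fold change −1.07, adjusted p = 0.0408, where the edgeR model gave −0.29 ± 0.47 and an unadjusted p value of 0.548), beside 18.6%, and placed 10 (Mrpl15, Mrpl18, Mrpl20, Mrpl22, Mrpl46, Mrpl51, Mrps14, Mrps18c, Mrps36 and Mrps5) under an unadjusted p value of 0.05, beside 37.6%. The edgeR log2 fold change of Mrpl18 was −0.03 without control 3 and −0.13 without mito-supplemented 2 or 3. It was −0.49 without control 1 and −0.7 without mito-supplemented 1. Mrps14 had an unadjusted p value of 0.0314 without control 1, and Mrpl42 one of 0.0468 without control 2 and of 0.257 without control 4.

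**Figure D1:**
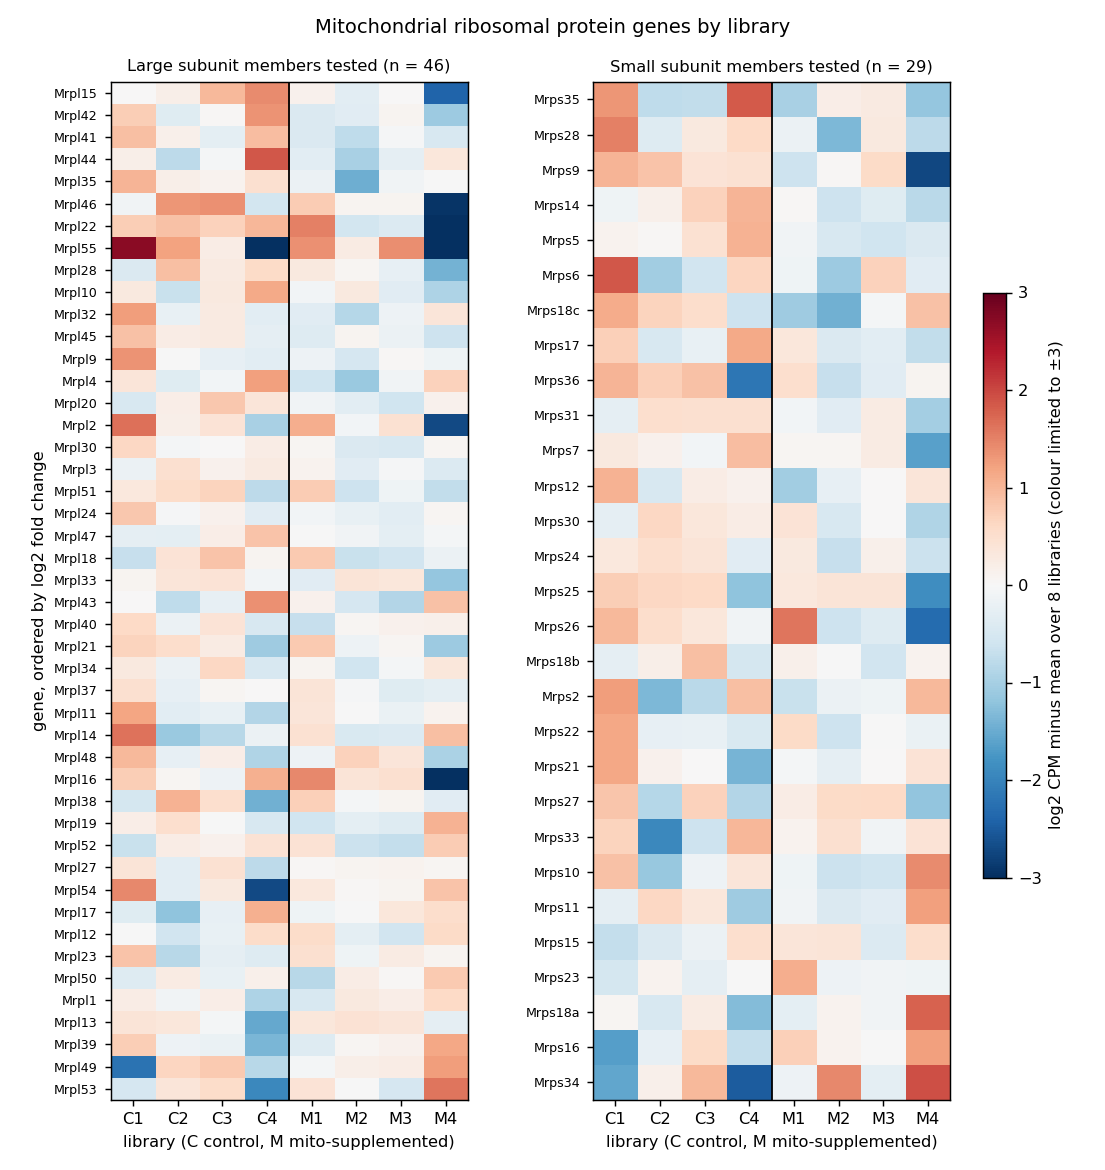
Each cell is the log2 CPM of a mitoribosomal protein gene in a library minus its mean over the 8 libraries, with large subunit genes on the left, small subunit genes on the right, and C and M for control and mito-supplemented libraries. The strongest colours lie in control 1, control 4 and mito-supplemented 4, where 26, 15 and 14 of the 75 genes had their highest value and 5, 16 and 23 their lowest.

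The plot of every gene by library shows where the spread lay. Control 1 held the highest value of 26 of the 75 genes, control 4 of 15 and mito-supplemented 4 of 14. Mito-supplemented 4 also held the lowest value of 23 genes and control 4 of 16, so that these libraries were extreme in both directions. By contrast, control 3 held 0 lowest values and mito-supplemented 3 held 0 highest ones. The SD over genes of the difference in log2 CPM from the mean of the other libraries was 0.94, 0.71, 0.50 and 1.25 in controls 1 to 4. It was 0.66, 0.58, 0.43 and 1.45 in mito-supplemented 1 to 4, and over all genes tested it was 1.64, 1.43, 1.16 and 1.53 in controls and 1.19, 1.02, 0.91 and 1.73 in mito-supplemented libraries. Across the mitoribosomal genes, the log2 levels of library pairs correlated between r = 0.40 (control 1 with mito-supplemented 4) and r = 0.90 (controls 2 and 3), where genes are not independent replicates. The median SD of log2 CPM over the 8 libraries was 0.70 for mitoribosomal genes and 0.98 for all genes.

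Single values far from the rest were counted by their distance from the mean of the other 7 libraries. Of 600 values, 18 lay more than 4-fold below that mean and 2 more than 4-fold above it. Mito-supplemented 4 held 9 of the low values and control 4 held 5, and of the remaining ones 3 were in control 1 and 1 in control 2. The following were chosen after their values were seen. Mrpl16, whose bacterial relative helps to seat transfer RNA, had 4 counts in mito-supplemented 4 where the mean of the others corresponded to 148 counts. Mrpl46, a large subunit protein of mitochondria alone, had 4 counts there against 65.1. Mrpl49, likewise of mitochondria alone, had 48 counts in control 1 where the others corresponded to 318. The median count per gene was 108 in mito-supplemented 4 and 107 in mito-supplemented 2, which held 0 such values.

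Among the large subunit genes, 33 of 46, or 71.7%, were fitted lower, beside 55.1% of all genes. Their median log2 fold change was −0.27, which was −0.01 with library size as the only scaling and −0.06 without control 1. Their summed level was 721.9, 563.7, 620.5 and 656.5 CPM in controls against 592.8, 461.0, 494.0 and 645.5 CPM in mito-supplemented libraries. Mito-supplemented 1 and 4 lay within the control range, so the groups overlapped. The group means were 641 ± 66.3 and 548 ± 85.6 CPM (SD, n = 4 each).

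Per kilobase of transcript, Mrpl52, a large subunit protein without a bacterial relative, had the highest level at 96.9 ± 36.7 CPM per kb (SD, n = 8). In CPM it stood at 23.8, 44.2, 41.6 and 51.3 in controls and at 51.2, 24.3, 23.2 and 64.2 in mito-supplemented libraries. Each group held libraries at both ends of the range, and the log2 fold change was 0.02 ± 0.44 (SE). Mrpl30, the relative of a bacterial large subunit protein, followed at 49.3 ± 12.4 CPM per kb. It stood at 71.5, 44.6, 47.0 and 54.1 CPM in controls and at 48.7, 34.3, 33.2 and 48.6 CPM in mito-supplemented libraries, highest in control 1, with overlapping groups and a log2 fold change of −0.40 ± 0.33 that was −0.22 without control 1. Mrpl18, the relative of a bacterial protein that binds the smallest ribosomal RNA, was at 22.9 ± 10.1 CPM per kb, with an SD range that met that of the next gene, Mrpl33 (22.5 ± 6.75, named after its values were seen). The SD ranges of Mrpl52 and Mrpl30 met, those of Mrpl30 and Mrpl18 did not, and Mrpl18 varied from 15.9 CPM in control 1 to 46.0 CPM in control 3.

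At the low end, Mrpl48, found in mitochondria alone (1.27 ± 0.600 CPM per kb), Mrpl19 (2.19 ± 0.975) and Mrpl15 (2.52 ± 1.56) did not differ beyond their spread. These levels use the longest transcript. With the shortest, Mrpl48 (3.34 CPM per kb) and Mrpl15 (5.6) left the lowest genes, which were Mrpl19, Mrpl11 and Mrpl17. Mrpl19, whose bacterial relative lies where the subunits meet, stood at 11.6, 14.5, 10.2 and 7.30 CPM in controls and at 6.65, 8.31, 7.76 and 21.1 CPM in mito-supplemented libraries, so that mito-supplemented 4 was above every other library. The largest spreads were those of Mrpl55 and Mrpl22, with SDs of log2 CPM of 2.36 and 1.72. Mrpl55, the relative of a bacterial large subunit protein, had 293, 52, 36 and 0 counts in controls and 96, 30, 105 and 1 in mito-supplemented libraries, with the lowest count of each group in replicate 4. Mrpl22, whose bacterial relative lines the exit tunnel for the growing protein, stood at 6.28, 6.98, 6.12 and 7.50 CPM in controls and at 10.9, 2.49, 2.77 and 0.139 CPM in mito-supplemented libraries. Its controls lay close together, while mito-supplemented 1 was above them and the rest below, and the log2 fold change was −0.71 ± 0.95, which was −1.86 without mito-supplemented 1, −0.29 without mito-supplemented 4, −1.55 with a replicate block and −1.30 with limma-voom (unadjusted p = 0.0488).

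Of the large subunit genes with the lowest p values, Mrpl42, found in mitochondria alone, lies at chr10:95480805-95501940 in GRCm38. It stood at 20.9, 9.75, 12.9 and 32.0 CPM in controls and at 9.27, 9.77, 13.2 and 5.77 CPM in mito-supplemented libraries. Controls 1 and 4 were high, and controls 2 and 3 lay within the mito-supplemented range. Its means were 18.9 ± 9.92 and 9.49 ± 3.02 CPM (SD, n = 4 each), and the log2 fold change was −0.99 ± 0.51 (SE), which was −0.59 without control 4 and −0.22 with limma-voom. The quasi-likelihood test gave an unadjusted p value of 0.0786 and, with Benjamini-Hochberg adjustment, 0.667. Mrpl35, the relative of a bacterial large subunit protein, lies at chr6:71812997-71826969. It stood at 27.1, 15.1, 14.2 and 18.6 CPM in controls and at 11.7, 4.71, 12.4 and 13.1 CPM in mito-supplemented libraries. All controls were above all mito-supplemented libraries, and mito-supplemented 2 lay apart below the rest. The log2 fold change was −0.84 ± 0.47, with an unadjusted p value of 0.104 in the edgeR model (adjusted p = 0.681).

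Mrpl15, a relative of a bacterial protein of the large subunit core, stood at 8.62, 9.75, 16.9 and 23.1 CPM in controls and at 9.41, 6.86, 8.66 and 1.53 CPM in mito-supplemented libraries. Controls 3 and 4 were the highest and mito-supplemented 4 the lowest, while the others overlapped, and the log2 fold change was −1.14 ± 0.63 with an unadjusted p value of 0.100 in the edgeR model and −0.97 with one of 0.0388 in limma-voom. Mrpl41, found in mitochondria alone, stood at 11.5, 6.74, 4.92 and 11.7 CPM in controls and at 4.46, 3.53, 5.94 and 4.31 CPM in mito-supplemented libraries. Only control 3 lay within the mito-supplemented range, and the log2 fold change was −0.93 ± 0.54 with an unadjusted p value of 0.117, and it was −0.27 with limma-voom.

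**Figure D2:**
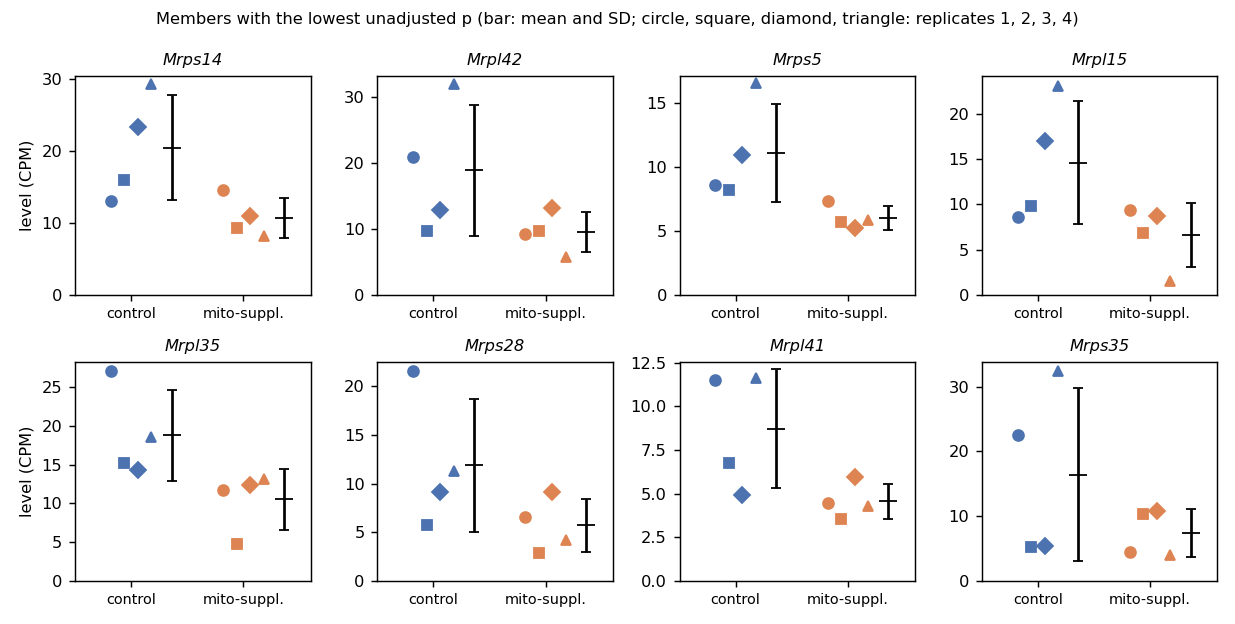
The vertical axis is CPM and each point is a library of the 8 genes with the lowest unadjusted p values, controls in blue and mito-supplemented samples in orange, with the mean and SD beside each group. The groups are apart for Mrps5 and Mrpl35 and overlap for the other 6 genes.

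Among the small subunit genes, 20 of 29, or 69%, were fitted lower, beside 55.1% of all genes. Their median log2 fold change was −0.32. It was −0.16 with library size as the only scaling, −0.15 with limma-voom, −0.50 with counts summed by label code and −0.11 without control 1. Their summed level was 367.7, 218.3, 251.5 and 307.7 CPM in controls against 243.8, 202.3, 224.4 and 276.4 CPM in mito-supplemented libraries. Control 1 was the highest and the groups overlapped, with means of 286 ± 65.6 and 237 ± 31.4 CPM (SD, n = 4 each). The small subunit genes varied more between libraries than the large ones, with a median SD of log2 CPM of 0.83 against 0.65, at a median level of 6.16 against 7.20 CPM per kb. All genes had a median of 5.08 CPM per kb, and none of these differences was tested.

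Mrps15, the relative of a bacterial protein that binds the small ribosomal RNA early in assembly, had the highest level per kilobase at 26.0 ± 8.42 CPM per kb (SD, n = 8). It stood at 14.1, 17.1, 20.4 and 32.8 CPM in controls and at 29.7, 30.2, 17.5 and 33.3 CPM in mito-supplemented libraries. Control 4 and all mito-supplemented libraries except the third stood highest, so the groups overlapped, and the log2 fold change was 0.40 ± 0.40, which was 0.70 without control 4. Mrps21 followed at 15.9 ± 7.75 and Mrps2 at 15.4 ± 9.73 CPM per kb, both relatives of bacterial small subunit proteins, and the SD ranges of all 3 met, as did that of the next gene. Mrps2 stood at 63.5, 10.4, 15.3 and 49.9 CPM in controls and at 16.6, 23.3, 24.1 and 52.7 CPM in mito-supplemented libraries, so that controls 1 and 4 and mito-supplemented 4 were high. The lowest were Mrps26 (1.40 ± 0.994 CPM per kb), Mrps18b (1.43 ± 0.560) and Mrps25 (1.61 ± 0.727), whose SD ranges met each other and that of the next gene. With the shortest in place of the longest transcript, 8 of the 12 genes named for their level, over both subunits, stayed among the highest and lowest. Mrpl48, Mrpl15, Mrps2 and Mrps18b did not.

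Mrps25, found in mitochondria alone, was low in replicate 4 of each group, at 3.55 CPM in control 4 and 2.22 CPM in mito-supplemented 4, where the other libraries held between 10.4 and 14.0 CPM. The largest spreads were those of Mrps34 and Mrps9, with SDs of log2 CPM of 1.49 and 1.22. Mrps34, a mitochondrial protein of the small subunit, stood at 0.492, 1.90, 3.43 and 0.197 CPM in controls and at 1.5, 4.85, 1.36 and 6.74 CPM in mito-supplemented libraries. Controls 1 and 4 were lowest, the groups overlapped, and the log2 fold change of 1.24 ± 1.01 was the highest of all 75 genes, and it was 2.02 without control 3, 0.76 without mito-supplemented 4 and −0.04 with limma-voom. Mrps9, the relative of a bacterial protein that contacts transfer RNA, stood at 17.4, 15.7, 11.5 and 11.8 CPM in controls and at 5.53, 8.73, 12.8 and 1.18 CPM in mito-supplemented libraries. Mito-supplemented 4 was the lowest and mito-supplemented 3 lay within the control range, and the log2 fold change was −1.0 ± 0.65, which was −0.61 without mito-supplemented 4 and −0.52 with limma-voom.

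Mrps14, the relative of a bacterial protein of the small subunit head, lies at chr1:160195215-160202170 and had the lowest p value of all 75 genes. It stood at 13.1, 16.0, 23.3 and 29.4 CPM in controls and at 14.6, 9.28, 11.0 and 8.14 CPM in mito-supplemented libraries. Control 1 was below mito-supplemented 1, and otherwise every control was above every mito-supplemented library. Its means were 20.5 ± 7.37 and 10.7 ± 2.80 CPM (SD, n = 4 each), and the log2 fold change was −0.92 ± 0.43 (SE). The quasi-likelihood test gave an unadjusted p value of 0.0585 and, with Benjamini-Hochberg adjustment, 0.655. Limma-voom gave −0.98 with an adjusted p value of 0.0413, short of a 2-fold difference, and DESeq2 −0.94 with one of 0.414.

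Mrps5, whose bacterial relative sits at the entry of messenger RNA, maps to chr2:127587222-127606829. It stood at 8.57, 8.25, 11.0 and 16.6 CPM in controls and at 7.38, 5.68, 5.22 and 5.84 CPM in mito-supplemented libraries. All controls were above all mito-supplemented libraries, with control 4 the highest. Its means were 11.1 ± 3.85 and 6.03 ± 0.936 CPM (SD, n = 4 each), and the log2 fold change was −0.88 ± 0.48 with an unadjusted p value of 0.0959 in the edgeR model (adjusted p = 0.679). Limma-voom gave −0.87 with an unadjusted p value of 0.0232 and an adjusted one of 0.0811, and DESeq2 −0.88 with 0.0496 and 0.456. Mrps5 and Mrpl35 were the 2 of 75 genes, or 2.67%, whose groups did not overlap, both lower, beside 5.03% of all genes in either direction and 2.03% lower.

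Mrps28, a small subunit protein with a bacterial relative, stood at 21.6, 5.71, 9.15 and 11.3 CPM in controls and at 6.60, 2.84, 9.12 and 4.24 CPM in mito-supplemented libraries. Control 1 was the highest and control 2 lay within the mito-supplemented range, and the log2 fold change was −1.06 ± 0.60 with an unadjusted p value of 0.106 in the edgeR model, and it was −0.58 without control 1 and −0.56 with limma-voom. Mrps35, found in mitochondria alone, stood at 22.5, 5.23, 5.32 and 32.4 CPM in controls and at 4.46, 10.4, 10.8 and 3.96 CPM in mito-supplemented libraries. Controls 1 and 4 were high and controls 2 and 3 lay within the mito-supplemented range. The log2 fold change was −1.14 ± 0.71 with an unadjusted p value of 0.138, and it was −0.55 without control 4 and 0.58 with limma-voom.

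The balance of the subunits was compared next. The summed large subunit level per summed small subunit level was 1.96, 2.58, 2.47 and 2.13 in controls and 2.43, 2.28, 2.20 and 2.34 in mito-supplemented libraries. The mito-supplemented ratios all lay inside the control range, with means of 2.29 ± 0.287 and 2.31 ± 0.0971 (SD, n = 4 each) and a log2 difference of 0.02, which was −0.05 without control 1 and −0.01 without control 4. Mrps18a and Mrps30 have small subunit symbols, but their proteins sit in the large subunit, and with these genes counted there the difference was 0.06. All genes of the family summed to 1089.6, 782.0, 872.0 and 964.2 CPM in controls and to 836.6, 663.3, 718.4 and 921.9 CPM in mito-supplemented libraries. Control 1 was the highest and mito-supplemented 2 the lowest, and mito-supplemented 1 and 4 lay within the control range. On the log2 scale the sums averaged 9.85 ± 0.20 in controls and 9.60 ± 0.21 in mito-supplemented libraries (SD, n = 4 each), a difference of −0.24 that was 0.14 with library size as the only scaling, −0.14 without control 1 and −0.16 without mito-supplemented 2. The plot of summed levels shows these values beside the mitochondrial rRNA share.

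**Figure D3:**
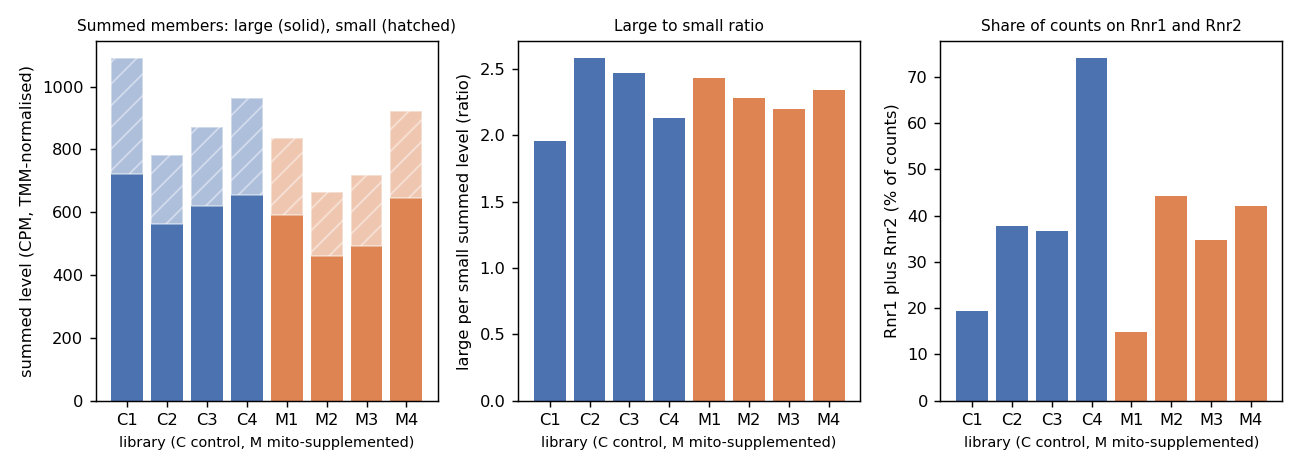
Bars give, for each library, the summed CPM of the large (solid) and small (hatched) subunit genes, the ratio of large to small, and the percentage of counts on Rnr1 and Rnr2, with C and M for control and mito-supplemented. The ratio lay between 1.96 and 2.58, while the rRNA share ran from 14.9% to 74.0%.

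The genes were also split by origin. Of 46 bacterial relatives tested, 34, or 73.9%, were fitted lower, beside 55.1% of all genes. Their median log2 fold change was −0.34, which was −0.12 with library size as the only scaling and −0.06 without control 1. Of the other 29 genes, taken as of mitochondria alone, 19, or 65.5%, were fitted lower, with a median of −0.24. That median was 0.01 with library size as the only scaling and −0.14 without control 1. It was −0.15 without mito-supplemented 2, −0.12 without mito-supplemented 3 and −0.14 without mito-supplemented 4. Neither list held a gene at an unadjusted p value under 0.05 in the quasi-likelihood test, beside 7.71% of all genes. DESeq2 placed 2 bacterial relatives, Mrps14 and Mrps5, and 0 of the others there, beside 10.9% of all genes. Limma-voom placed 7 bacterial relatives and 3 genes of mitochondria alone, beside 37.6%.

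The counts also held 7 mitoribosomal proteins under other symbols. Of these, the quasi-likelihood test placed 0 at an unadjusted p value under 0.05 and called 0, beside 7.71% and 0% of all genes. Fitted lower were 6, or 85.7%, beside 55.1% of all genes, with a median log2 fold change of −0.20. That median was −0.08 with library size as the only scaling, −0.47 with limma-voom, −0.35 with counts summed by label code, −0.10 without control 2, −0.46 without control 4 and −0.45 without mito-supplemented 1. Limma-voom placed 2, Dap3 (log2 fold change −0.68, unadjusted p = 0.019) and Mrp63 (−1.24, unadjusted p = 0.0254), under an unadjusted p value of 0.05, beside 37.6% of all genes. Dap3, a GTP-binding protein of the small subunit, stood at 18.1, 32.0, 40.3 and 30.4 CPM in controls and at 21.1, 22.6, 23.1 and 19.8 CPM in mito-supplemented libraries. Control 1 was the lowest of all and the other controls were above all mito-supplemented libraries, with a log2 fold change of −0.48 ± 0.36 that was −0.31 without control 3. Ptcd3, an RNA-binding protein at the entry for messenger RNA, stood at 54.4, 70.3, 41.9 and 29.0 CPM in controls and at 58.6, 32.1, 35.8 and 28.9 CPM in mito-supplemented libraries, which overlapped (log2 fold change −0.33 ± 0.39, and −0.10 without control 2, −0.50 without control 4, −0.57 without mito-supplemented 1 and −0.19 without mito-supplemented 4). Log2 fold changes were −0.17 ± 0.77 for Gadd45gip1, which sits at the tunnel exit, −0.20 ± 0.39 for Aurkaip1, −0.05 ± 0.66 for Chchd1 and 0.23 ± 0.66 for Ict1, a peptidyl-tRNA hydrolase of the large subunit. Mrp63, a large subunit gene added after its values were seen, was at −0.93 ± 0.74.

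Of the factors that modify the ribosomal RNA or assemble the subunits, 19 of 22 tested, or 86.4%, were fitted lower, beside 55.1% of all genes. Their median log2 fold change was −0.49. It was −0.17 with library size as the only scaling, −0.32 with limma-voom and −0.18 without mito-supplemented 4. The quasi-likelihood test called 0 and placed 0 at an unadjusted p value under 0.05, beside 0% and 7.71% of all genes. The likelihood ratio test and DESeq2 also called 0, beside 0.418% and 1.03%, and placed 0, beside 9.2% and 10.9%. Limma-voom placed 3, Mettl15, Mrm1 and Tfb1m, beside 37.6% of all genes. The lowest p values, chosen after they were seen, were those of Rpusd4, a pseudouridine synthase (log2 fold change −0.99 ± 0.58, unadjusted p = 0.120), and Noa1, a GTPase of small subunit assembly (−0.89 ± 0.53, unadjusted p = 0.121). Rbfa, a small subunit maturation factor, had the highest fold change, at 0.50 ± 0.65.

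Of the mitochondrial translation factors, 15 of 17 tested, or 88.2%, were fitted lower, beside 55.1% of all genes. Their median log2 fold change was −0.39, which was −0.15 with library size as the only scaling and −0.25 without mito-supplemented 4. The quasi-likelihood test called 0 and placed 0 at an unadjusted p value under 0.05, beside 0% and 7.71% of all genes. DESeq2 placed 1, Gfm2, beside 10.9% of all genes, and limma-voom 5, Gfm1, Gfm2, Mto1, Mtrf1l and Taco1, beside 37.6%. Gfm2, which helps to split the ribosome after termination, was chosen after its values were seen, and stood at 18.2, 23.9, 23.2 and 17.0 CPM in controls and at 14.5, 11.7, 10.4 and 3.00 CPM in mito-supplemented libraries. All controls were above all mito-supplemented libraries, with mito-supplemented 4 the lowest. Gfm2 was the 1 of 17 translation factors, or 5.88%, whose groups did not overlap. This stood beside 5.03% of all genes in either direction and 2.03% lower. The log2 fold change was −1.06 ± 0.51 with an unadjusted p value of 0.0651 in the edgeR model (adjusted p = 0.660). Gfm1, a translocation factor, had a log2 fold change of −0.67 ± 0.42 and an unadjusted p value of 0.141 in the edgeR model. Without mito-supplemented 1 these were −1.01 and 0.0316, where 14.1% of all genes had an unadjusted p value under 0.05.

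**Figure D4:**
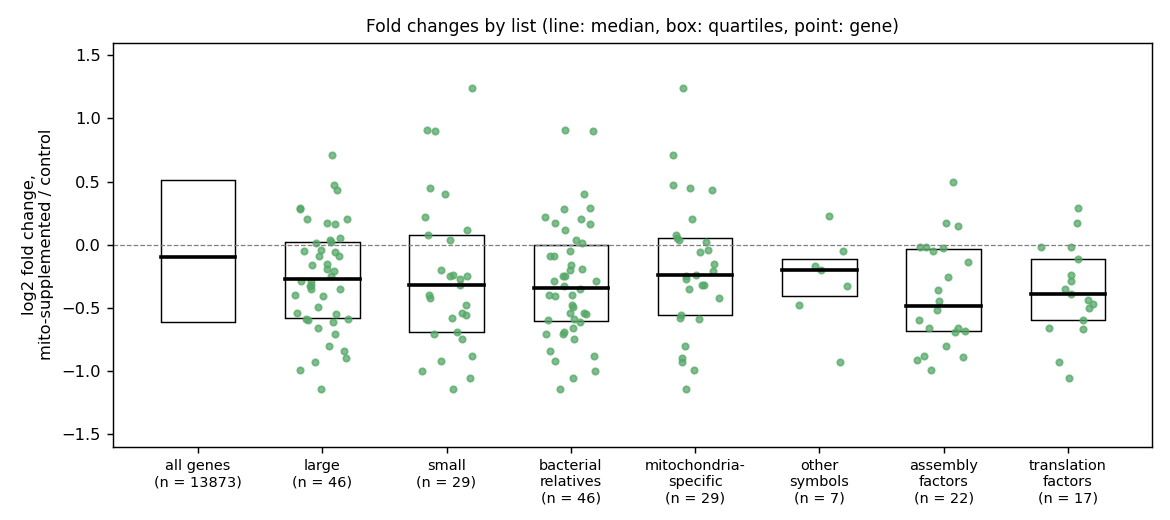
The vertical axis is the log2 fold change of mito-supplemented over control under TMM, each point is a gene, and lines and boxes are the median and quartiles of each list, with all 13873 genes at the left. Medians lie between −0.20 and −0.49 against −0.10 for all genes, and with library size as the only scaling the median of the genes of mitochondria alone was 0.01 and that of all genes 0.17.

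In the plot of fold changes by list, the quartile boxes of every list overlap that of all genes, which runs from −0.61 to 0.51. The median SE of a log2 fold change was 0.57 for mitoribosomal genes and 0.65 for all genes.

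The ribosomal RNAs of the same particle were taken as Rnr1 and Rnr2, whose identity as the mitochondrial small and large ribosomal RNAs rests on the symbols. Ribosomal RNA had been depleted from the libraries after amplification, so these counts are what was left and not the amount in the follicles. The part of depletion in them was not tested. The joint share of counts on Rnr1 and Rnr2 ran from 14.9% in mito-supplemented 1 to 74.0% in control 4. There the exact 95% binomial interval was 73.99% to 74.04%. The difference of −7.90 percentage points between group means had an exact two-sided permutation p value of 0.657, and the difference was 2.78 points without control 4, −15.4 without control 1 and −1.52 without mito-supplemented 1. Rnr2 per Rnr1 was 3.43, 4.46, 5.16 and 4.51 in controls and 4.95, 4.35, 3.90 and 3.41 in mito-supplemented libraries. The ratio was lowest in mito-supplemented 4 and control 1, and the groups overlapped, with means of 4.39 ± 0.715 and 4.15 ± 0.653 (SD, n = 4 each; exact permutation test, two-sided, p = 0.60).

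The relation of the protein genes to this share differed with the measure and the libraries used. Over 8 libraries, the log2 summed level and the share had r = −0.02 and rho = −0.05, with r = −0.04 for the large and 0.01 for the small subunit. Without control 4 and mito-supplemented 1, the libraries farthest from the median share, r was −0.71 over 6 libraries. It was −0.52 without control 4 alone and 0.34 without control 1, so the value rests on single libraries. The mean of the log2 levels, in which each gene weighs the same, had r = −0.60 and rho = −0.74 with the share over 8 libraries. The scale mattered as well, since the genes' share of all counts, which includes the rRNA, had r = −0.79 and their share of counts outside Rnr1, Rnr2 and the cytosolic ribosomal RNA symbols Rn45s and Rn18s r = 0.41, which was 0.78 without control 1, 0.07 without control 4 and 0.14 without mito-supplemented 1. The ratio of large to small subunit levels had r = −0.09, −0.61 without control 1, 0.32 without control 4, 0.06 without mito-supplemented 1, and 0.70 without both control 4 and mito-supplemented 1. These are descriptions over values taken from the same libraries, given without a test.

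**Figure D5:**
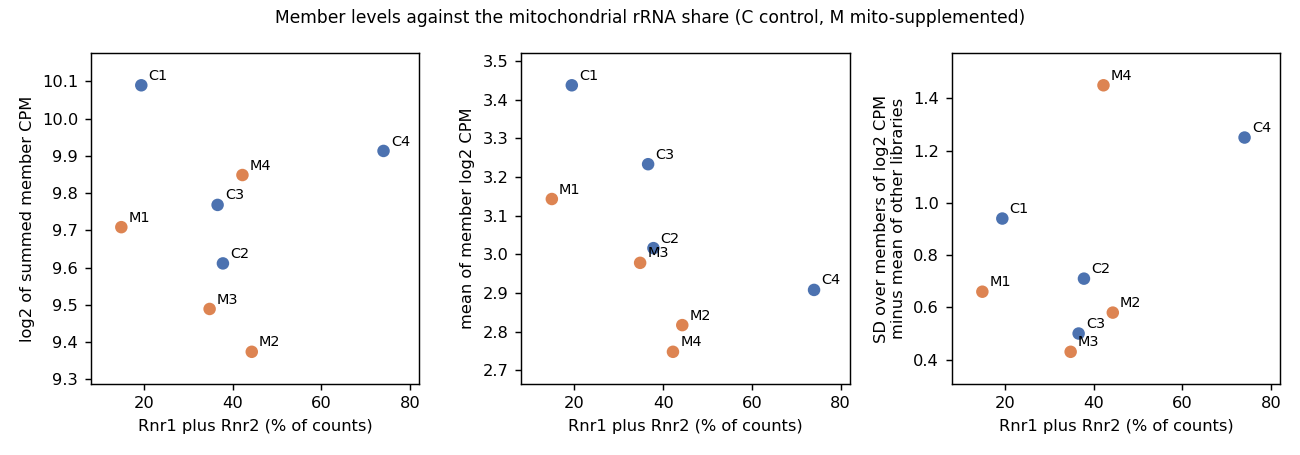
The horizontal axes give the percentage of counts on Rnr1 and Rnr2, and the vertical axes the log2 summed CPM, the mean log2 CPM, and the SD over genes of log2 CPM minus the mean of the other libraries, with C and M for control and mito-supplemented libraries. The summed level has r = −0.02 with the share, the mean log2 level r = −0.60 and the SD r = 0.43, which was 0.08 without control 4.

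The plot against the share shows that control 4 combined the second summed level from the top with a mean log2 level of 2.91, among the 3 lowest. It held the highest value of 15 genes and the lowest of 16, and its SD over genes was 1.25. Mito-supplemented 4 had the lowest mean log2 level, 2.75, at a summed level of 921.9 CPM. The SD over genes had r = −0.52 with the log2 number of counts outside those 4 ribosomal RNA genes, and −0.25 without control 4, and the part of depth in it was not tested.

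Gene by gene, a quasi-likelihood fit with group and the logit of the share as terms placed 5 of 75 mitoribosomal genes at an unadjusted p value under 0.05, which is 6.67% beside 15.3% of all genes. All 5 had slopes below 0. Genes both under that threshold and with a slope below 0 were thus 6.67% of the family, beside 7.56% of all genes. In the family 0 had an adjusted p value under 0.05, with a lowest value of 0.292 after Benjamini-Hochberg adjustment. The likelihood ratio test placed 7, beside 17.9%. Slopes were below 0 for 47 of 75 genes, or 62.7% beside 58.6%, with a median of −0.17 against −0.12. The count of 5 was 0 without control 3 (beside 12.8% of all genes), 2 without control 2 (13.2%), control 4 (5.1%), mito-supplemented 2 (12.1%) or mito-supplemented 3 (11.9%), and 3 without mito-supplemented 1 (10%).

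Mrpl51, found in mitochondria alone, had the lowest p value in this fit. It stood at 15.8, 18.6, 20.2 and 7.30 CPM in controls and at 21.5, 8.17, 11.6 and 7.51 CPM in mito-supplemented libraries. It was highest in mito-supplemented 1, the library with the lowest share, and lowest in control 4, and its slope was −0.69 ± 0.28 log2 units per logit unit (unadjusted p = 0.0357). Mrps22, found in mitochondria alone, stood at 30.0, 11.2, 11.3 and 9.67 CPM in controls and at 19.7, 8.59, 13.1 and 11.5 CPM in mito-supplemented libraries. Control 1 and mito-supplemented 1, with the lowest shares, were the highest, and the slope was −0.62 ± 0.25 (unadjusted p = 0.0361). Mrpl2, whose bacterial relative lies near the peptidyl transferase centre, stood at 15.2, 5.39, 6.41 and 2.37 CPM in controls and at 10.4, 4.50, 6.62 and 0.626 CPM in mito-supplemented libraries. The same libraries were the highest, and mito-supplemented 4 and control 4 the lowest, with a slope of −1.10 ± 0.45 (unadjusted p = 0.0366). Mrpl55 had a slope of −2.35 ± 0.96 (unadjusted p = 0.0358), with 0 counts in control 4. Mrpl54, named after its values were seen, had a slope of −1.18 ± 0.51 (unadjusted p = 0.0446).

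How far the genes varied together between libraries was described by correlation. Over 8 libraries, the mean Pearson r of gene pairs was 0.07 for all 75 genes, 0.07 within the large subunit, 0.04 within the small subunit and 0.08 between them, against 0 for all genes, and 55.4% of the pairs were above 0. Each gene was also set against the mean of the rest. This r was above 0 for 52 of 75 genes with a median of 0.33, and ran from −0.77 for Mrpl50 to 0.79 for Mrpl2. The profiles most like the mean of the family belonged to Ppapdc1b (r = 0.991), Atp6v1d (r = 0.979), a subunit of the vacuolar proton pump, and Ddx6 (r = 0.965), an RNA helicase of messenger RNA storage, over 8 libraries. They were picked as the highest among 13798 genes outside the family. With so many genes and only 8 libraries, high values also arise by chance, and no comparison with chance was made. Ddx6 stood at 8.65, 8.02, 8.06 and 7.61 log2 CPM in controls and at 8.10, 7.40, 7.79 and 7.46 log2 CPM in mito-supplemented libraries. Its highest library was control 1, as for the mean log2 level of the family, which was 3.44, 3.02, 3.23 and 2.91 in controls and 3.14, 2.82, 2.98 and 2.75 in mito-supplemented libraries. The log2 summed oocyte marker level had r = 0.48 and rho = 0.21 with the log2 summed level of the family over 8 libraries, and r = −0.06 without control 1, and its part in the result was not tested.

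The genes lie on 17 chromosomes, with transcripts of 418 to 7300 bases. Exons of 15 of them overlap another gene, which for 13 is protein-coding, and since the strand setting of the counting is not given in the sources used here, reads of such pairs cannot be told apart. Of the Mrpl and Mrps genes with values given here, this concerns Mrpl18 (Tcp1), Mrpl19 (Gcfc2), Mrpl21 (Ighmbp2), Mrpl48 (Rab6a), Mrpl49 (Syvn1), Mrps25 (Nr2c2), Mrps26 (4930473A02Rik) and Mrpl51 (Mir3098). GENCODE M21 also lists 5 named pseudogenes of these genes, and how reads mapping to several places were handled is not given.

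Several of the genes stand head to head with a neighbour. In 23 of them, the 250 bases before the start hold exons of a protein-coding gene on the other strand, which made 22 pairs. In the 18 pairs with both genes tested, r over 8 libraries had a median of 0.16 and ran from −0.76 (Mrpl21 with Ighmbp2, whose exons overlap) to 0.86 (Mrpl14 with Tmem63b). A single pair joins both subunits, and it was chosen after its position was seen. Mrpl46 stood at 2.75, 7.61, 7.95 and 1.97 CPM in controls and at 5.14, 3.12, 3.13 and 0.278 CPM in mito-supplemented libraries. Its neighbour Mrps11, the relative of a bacterial small subunit protein, stood at 4.92, 9.12, 7.55 and 2.76 CPM in controls and at 5.48, 4.36, 4.67 and 14.0 CPM in mito-supplemented libraries. In both genes controls 2 and 3 were the highest outside mito-supplemented 4, where Mrpl46 was at its lowest and Mrps11 at its highest, and r was −0.27.

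Promoter sequences were compared because genes of the mitoribosome are known targets of nuclear respiratory factors. In the RefSeq promoter table of build GRCm38.p6, 67 of the 76 genes were matched by symbol, and Mrpl13, Mrpl15, Mrpl19, Mrpl38, Mrpl4, Mrpl54, Mrps28, Mrps34 and Mrps35 were not matched. The 250 bases before each start were searched on both strands. The NRF1-like letters GCGCANGCG (CGCNTGCGC on the other strand) were in 12 genes, 17.9% of those matched, and in 5.86% of all 27025 symbols, where a gene with several promoters counted if any held the letters. The ETS-like letters CCGGAAG, which read as CTTCCGG when taken from the opposite strand, were in 17 genes, 25.4%, and in 7.83% of all symbols. The YY1-like letters AAGATGGCG (CGCCATCTT) were in 2 genes, Mrpl36 and Mrps11, 2.99%, and in 0.71% of all symbols. By subunit, the NRF1-like letters were in 10 large and 2 small subunit genes and the ETS-like letters in 11 large and 6 small ones, and 29 genes held at least 1 of the 3 motifs. A match is a description of letters and not of binding.

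The promoters of 4 genes are shown, each as the 250 bases before the start, read 5′ to 3′ on the strand of the gene, with motif letters in capitals. Mrpl52, which had the highest level per kilobase, is from chr14:54426659-54426908 (plus strand), with the ETS-like letters of the other strand at bases 47 to 41 before the start. Mrps22, which had a low p value in the share fit, is from chr9:98601680-98601929 (minus strand), with ETS-like letters at bases 11 to 5. Mrpl45, chosen after its sequence was seen, is from chr11:97315466-97315715 (plus strand), with NRF1-like letters at bases 120 to 112 and 38 to 30. Mrps14, which had the lowest p value between groups, is from chr1:160194965-160195214 (plus strand) and held 0 matches, so no capitals are printed.
Mrpl52: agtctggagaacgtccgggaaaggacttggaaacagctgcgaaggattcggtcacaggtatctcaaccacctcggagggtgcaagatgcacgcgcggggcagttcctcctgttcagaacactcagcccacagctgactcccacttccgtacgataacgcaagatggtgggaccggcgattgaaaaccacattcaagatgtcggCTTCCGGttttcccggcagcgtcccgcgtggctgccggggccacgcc
Mrps22: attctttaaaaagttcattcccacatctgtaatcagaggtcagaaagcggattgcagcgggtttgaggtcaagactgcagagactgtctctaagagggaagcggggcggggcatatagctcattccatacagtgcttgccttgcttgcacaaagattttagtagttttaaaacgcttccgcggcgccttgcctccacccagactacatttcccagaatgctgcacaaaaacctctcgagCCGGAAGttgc
Mrpl45: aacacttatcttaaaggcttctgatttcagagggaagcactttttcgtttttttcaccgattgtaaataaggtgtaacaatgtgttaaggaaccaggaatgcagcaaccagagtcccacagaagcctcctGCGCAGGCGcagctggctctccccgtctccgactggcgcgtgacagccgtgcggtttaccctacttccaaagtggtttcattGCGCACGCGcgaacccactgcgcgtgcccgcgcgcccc
Mrps14: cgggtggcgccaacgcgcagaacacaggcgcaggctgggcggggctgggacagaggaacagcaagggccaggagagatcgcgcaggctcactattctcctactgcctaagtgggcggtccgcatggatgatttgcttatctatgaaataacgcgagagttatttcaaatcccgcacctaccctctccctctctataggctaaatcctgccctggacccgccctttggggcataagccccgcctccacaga

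Of the genes shown, Mrpl45 stood at 12 ± 4.01 CPM in controls against 8 ± 1.73 CPM in mito-supplemented libraries (SD, n = 4 each), and Mrps22 at 15.5 ± 9.69 and 13.2 ± 4.68 CPM (SD, n = 4 each). The groups overlapped for both genes, and control 1 of Mrps22 was far above the others.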

How the data were processed

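RNA-Seq was analysed for 4 control and 4 mito-supplemented samples of primordial follicles. The authors deposited raw counts per gene symbol. According to the submitters' processing notes, these came from Trim Galore 0.4.4, STAR 2.5.3a on mm10 (GRCm38), featureCounts and edgeR 3.20.9; the annotation release, strand setting and treatment of multi-mapped reads are not given in the sources used here. Totals ranged from 10370045 to 19760763 counts.

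Counts were analysed in R 4.3.3 with edgeR 4.0.16 (TMM, filterByExpr defaults, 13873 of 26586 genes kept), using the quasi-likelihood test with Benjamini-Hochberg adjustment over all genes tested. Calls needed an adjusted p under 0.05 with an absolute log2 fold change reaching 1. Values on the log2 scale carried a prior count of 2. A second fit had group and the logit of the Rnr1 plus Rnr2 share as terms. Alternatives were the likelihood ratio test, DESeq2 1.42.0, limma 3.58.1 (voom with quality weights), other scalings and filters, a replicate block, a GC content and length offset, counts summed by label code, and leaving out libraries. Exact permutation tests were used for single values per library. The scripts were tested on simulated data.

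Members and lists were chosen with earlier results of these data known. Genes named were the 8 with the lowest p value between groups, the 3 highest and 3 lowest per subunit by CPM per kb, the 2 per subunit with the largest SD of log2 CPM, the 4 with the lowest p value in the share fit, and the mitoribosomal proteins with other symbols; others are marked in the text as chosen after their values were seen. The lists were large and small subunit, bacterial relatives, genes of mitochondria alone, other symbols (Mrp63 was added later), assembly factors, translation factors, and oocyte, pregranulosa, stroma, endothelial, immune, red cell and surface epithelium markers. Coordinates and lengths (longest RefSeq-paired transcript) were from GENCODE M21, where 22469 symbols matched directly, 2094 by an older symbol and 2023 not at all. Promoters were from RefSeq. Intervals cover counting error only.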

Additional observations from a re-analysis of the deposited data

Results flagged for a closer look

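Each value below stood apart from the other libraries of its group, with a gap to the nearest of them above 0.829 of the group's whole range. Of 102 groups of values tested, 11 held such a library. Chance gives about 5% for groups not chosen by their values. Several genes here were named for their spread or p values, so no comparison with chance is made.

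Among the mitoribosomal genes, Mrpl19 stood at 21.1 CPM in mito-supplemented 4, where the other mito-supplemented libraries held 6.65 to 8.31 CPM. Mrpl35 stood at 4.71 CPM in mito-supplemented 2, where the others held 11.7 to 13.1 CPM. Mrps22 stood at 30.0 CPM in control 1, where the other controls held 9.67 to 11.3 CPM. Mrps25 was low in replicate 4 of both groups, at 3.55 CPM in control 4 (others 12.8 to 14.0 CPM) and 2.22 CPM in mito-supplemented 4 (others 10.4 to 11.1 CPM). Ict1 stood at 28.4 CPM in mito-supplemented 4, where the others held 5.68 to 9.12 CPM.

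Summed marker levels stood apart in 5 groups. Oocyte markers were at 1948.7 CPM in control 1 (other controls 95.9 to 386 CPM). Stroma markers were at 2185.9 CPM and endothelial markers at 208 CPM in control 4, where the other controls held 328 to 639 CPM and 25 to 39.7 CPM. In mito-supplemented 1, immune markers were at 730.8 CPM (others 8.60 to 14.5 CPM) and red cell markers at 4530.3 CPM (others 19.2 to 72.9 CPM).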

How the results depend on the processing

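Of the alternatives for the comparisons, 188 stayed within the spread between libraries, within 1.5 times a count or on the same side of a threshold, 26 moved further and 1 tested difference turned round. A change of sign came with 5 of the 188 and 3 of the 26; for named genes, 613 kept, 11 passed p under 0.05 in addition and 54 turned round. Of 34 named genes with a fold change, 15 kept a single sign under every alternative. Chosen after seeing the data were leaving out replicate 4 of both groups together, every alternative for the factors, bacterial relatives, markers and correlations other than that of the summed level and, for named genes only, limma-voom, the GC content offset, summed label codes, other filters, TMM without the rRNA genes and the shortest transcript. Where a value moved or turned, the cause was not tested.

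Limma-voom called 1 gene of the family, beside 18.6% of all genes. At an unadjusted p value under 0.05 it placed 10, beside 37.6% of all genes, edgeR 0, beside 7.71%, and DESeq2 2, beside 10.9%. The fit without replicate 4 of both groups placed 1 (Mrps18c, beside 9.31% of all genes). Leaving out single libraries gave 0 to 1, beside 3.95% to 14.1%. The large subunit median was −0.01 with library size only, and −0.32 to −0.06 without single libraries; that of the small subunit was −0.45 to −0.11. The summed difference was 0.14 with library size only and −0.32 to −0.14 without single libraries. The log2 difference in the ratio of subunits was −0.05 to 0.08 without single libraries and −0.01 without replicate 4 of both groups. The rRNA share difference was −15.4 to 2.78 points without single libraries. The correlation of the summed level with that share was 0.41 per counts outside Rnr1, Rnr2, Rn45s and Rn18s, 0.04 with DESeq2 size factors, −0.79 with library size only, −0.71 without the 2 libraries farthest from the median share, and −0.52 to 0.34 without single libraries. Genes related to the share numbered 0 to 5 without single libraries, beside 5.1% to 29.8% of all genes. Limma-voom placed 3 assembly factors and 5 translation factors at an unadjusted p value under 0.05, beside 37.6% of all genes. DESeq2 and the GC content offset each placed 1 translation factor, beside 10.9% and 8.33% of all genes. Leaving out single libraries placed 0 to 1, beside 3.95% to 14.1%. The median of bacterial relatives was −0.44 to −0.06 without single libraries.

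With library size only and no turn of sign, Mrpl15 was at −0.65, Mrpl22 at −0.44, Mrpl30 at −0.18, Mrpl41 at −0.61, Mrpl42 at −0.56, Mrps14 at −0.50, Mrps15 at 0.81, Mrps5 at −0.48, Mrps35 at −0.70, Dap3 at −0.11 and Ptcd3 at −0.14. Without replicate 4 of both groups and with no turn of sign, Mrpl15 was at −0.5, Mrpl22 at −0.26, Mrpl42 at −0.43 and Mrps14 at −0.58. There Mrps34 was at 0.41, Mrps35 at −0.37 and Mrps26 at −0.07, while Mrps2 was at −0.48, Mrps18b at −0.49 and Mrps21 at −0.64. The following log2 fold changes turned sign. With library size only, Mrpl18 was at 0.02, Mrpl48 at 0.04, Gadd45gip1 at 0.13 and Chchd1 at 0.18. Mrpl19 was at −0.01 with DESeq2 and 0.00 with its size factors in edgeR. With limma-voom, Mrpl19 was at −0.42, Mrpl48 at 0.27, Mrpl52 at −0.62, Mrpl55 at 0.28, Mrps2 at 0.64, Mrps34 at −0.04 and Mrps35 at 0.58. With the GC content offset, Mrpl19 was at −0.04, and Mrpl52 and Chchd1 at 0.00. With counts summed by label code, Mrps2 was at 0.20 and Gadd45gip1 at 0.04. Without replicate 4 of both groups, Mrpl19 was at −0.67, Mrpl52 at −0.15, Chchd1 at 0.05 and Ict1 at −0.50. Without single libraries the ranges were −0.50 to 0.21 for Mrpl19, −0.87 to 0.24 for Mrpl2, −0.32 to 0.38 for Mrpl48, −0.27 to 0.24 for Mrpl52, −1.04 to 0.49 for Mrpl55, −0.42 to 0.14 for Mrps18b, −0.66 to 0.24 for Mrps2, −0.47 to 0.34 for Mrps21, −0.45 to 0.32 for Mrps22, −0.59 to 0.03 for Mrps25, −1.39 to 0.11 for Mrps26, −0.47 to 0.75 for Gadd45gip1, −0.39 to 0.02 for Aurkaip1, −0.69 to 0.21 for Chchd1, −0.48 to 0.78 for Ict1 and −1.17 to 0.10 for Rnr1.

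Replicate numbers are shared between the groups, and the deviations of same-numbered libraries had r = −0.24, −0.19, −0.33 and 0.22 for replicates 1 to 4, so that only replicate 4 was above 0; 2 of 8 libraries correlated best with their own number in the other group. With the replicate block, 0 genes of the family had an unadjusted p value under 0.05, beside 981 genes in all (7.07%), and the family median was −0.27. Under this block Mrpl19 was at −0.16, Mrpl52 at −0.08, Mrps2 at 0.04, Mrps21 at 0.00 and Gadd45gip1 at 0.37.

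In control 4 and mito-supplemented 4, 9 and 6 of the genes had under 10 counts, against 0 to 2 in the other libraries, and the part of depth was not tested.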
